A study of Mus musculus with 4 samples.

Results

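The genes of transforming growth factor beta (TGF-beta) signaling were examined in the liver of mice with diet-induced steatohepatitis. They were 9 genes of the 24346 listed in each library: the ligands Tgfb1, Tgfb2 and Tgfb3, the receptors Tgfbr1, Tgfbr2 and Tgfbr3, and the signal carriers Smad2, Smad3 and Smad7. The members were taken by gene symbol as a known pathway and not by a measured value, though earlier results of these data were known. All 9 were listed in all 4 libraries.

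RNA was sequenced from whole liver of male wild type C57BL/6 mice. The control group (n = 2) received for 3 weeks the NASH diet, which is rich in cocoa butter fat, cholesterol and sucrose, contains bile salt and induces steatohepatitis. The 7KC group (n = 2) received the same diet with added 7-ketocholesterol (7KC), an oxidation product of cholesterol. No library came from mice on a normal diet, so both groups describe a steatohepatitic liver. The labels number the libraries of a group as replicates and do not say whether each is a single animal, so p-values measure only the spread between these libraries.

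TGF-beta ligands are secreted as latent dimers that bind to matrix and cell-surface proteins and must be released before they act. A released ligand binds the kinase receptor Tgfbr2, often presented by the co-receptor Tgfbr3, and Tgfbr2 then activates Tgfbr1. Tgfbr1 phosphorylates Smad2 and Smad3, which enter the nucleus with Smad4 and change transcription, while Smad7 is an induced inhibitor that acts back on the receptor. In the liver the pathway is known for driving matrix production by stellate cells, for limiting hepatocyte growth and for steering T cells.

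RefSeq promoter sequences on the build GRCm38.p6 were matched for 5 members, Tgfb1, Tgfb2, Tgfbr1, Tgfbr2 and Smad3. Shown here are the 250 bases before the start site of the ligands Tgfb1 and Tgfb2, the most and the least abundant members, and of Tgfbr2, the receptor with the highest level. The Tgfb1 window lies at chr7:25686752-25687001 (plus strand), the Tgfb2 window at chr1:186705990-186706239 (minus strand) and the Tgfbr2 window at chr9:116175364-116175613 (minus strand). Capitals mark matches on either strand to the TATA box TATAAA, the GC box GGGCGG, the CCAAT box (letters as its name), the Smad box CAGAC and the AP-1 site TGANTCA, with no overlap among those marked.
Tgfb1: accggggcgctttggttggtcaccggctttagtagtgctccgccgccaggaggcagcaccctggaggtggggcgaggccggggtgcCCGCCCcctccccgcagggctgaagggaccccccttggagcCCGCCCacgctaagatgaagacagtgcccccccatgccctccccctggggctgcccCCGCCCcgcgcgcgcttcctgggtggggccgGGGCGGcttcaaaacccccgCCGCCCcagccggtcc
Tgfb2: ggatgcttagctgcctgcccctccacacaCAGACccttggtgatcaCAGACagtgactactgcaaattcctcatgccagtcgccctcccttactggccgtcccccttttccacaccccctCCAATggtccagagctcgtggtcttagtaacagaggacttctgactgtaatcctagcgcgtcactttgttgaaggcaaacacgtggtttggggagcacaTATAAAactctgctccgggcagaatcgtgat
Tgfbr2: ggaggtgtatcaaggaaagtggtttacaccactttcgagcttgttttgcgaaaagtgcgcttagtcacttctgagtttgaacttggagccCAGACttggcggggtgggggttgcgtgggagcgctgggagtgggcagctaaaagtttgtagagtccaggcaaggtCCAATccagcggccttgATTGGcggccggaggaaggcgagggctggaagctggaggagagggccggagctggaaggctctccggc

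The Tgfb1 window was 75.2% G and C, more than 96.1% of 32851 promoter windows of this length, and held 5 GC boxes and no TATA box. The Tgfb2 window was 53.6% G and C and held 1 TATA box, 1 CCAAT box and 2 Smad boxes. Tgfbr2 had 58.4% G and C, 2 CCAAT boxes and 1 Smad box. Among the windows not printed, Smad3 had 69.2% G and C with 2 GC boxes, and the upstream start site of Tgfbr1 had 74.8% with 2 GC boxes and 2 CCAAT boxes. No window held an AP-1 site. Over all promoters the TATA box was present in 12.4%, the GC box in 32.7%, the CCAAT box in 33.8%, the Smad box in 42.2% and the AP-1 site in 6.7%. A match is a description of the letters and not of a bound site.

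Levels are given as FPKM, the sequenced fragments scaled by transcript length and by the total of mapped fragments, which the authors deposited. Averaged over all libraries, the members ranged from 14.7 FPKM for Tgfb1 to 0.259 FPKM for Tgfb2. Tgfb1 and Tgfbr2 (14.5 FPKM) led. Tgfbr2 was above Tgfb1 in both control libraries and below it in both 7KC libraries. In control replicate 1 they were close, at 11.5 FPKM for Tgfbr2 and 11.0 FPKM for Tgfb1, and their order was not tested. Tgfbr1 followed at 7.03 FPKM, below Tgfbr2 in 4 of 4 libraries with no overlap of the ranges. Smad3 (3.62 FPKM), Smad7 (3.39 FPKM), Tgfbr3 (2.62 FPKM) and Smad2 (2.11 FPKM) came next, and each overlapped its neighbor in that order. Tgfb3, at 0.869 FPKM, and Tgfb2 each lay below the preceding gene in 4 of 4 libraries without overlap. Tgfb1 thus stood above 69.8% of the 12299 genes tested and Tgfb3 above 6.6%.

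**Figure D1:**
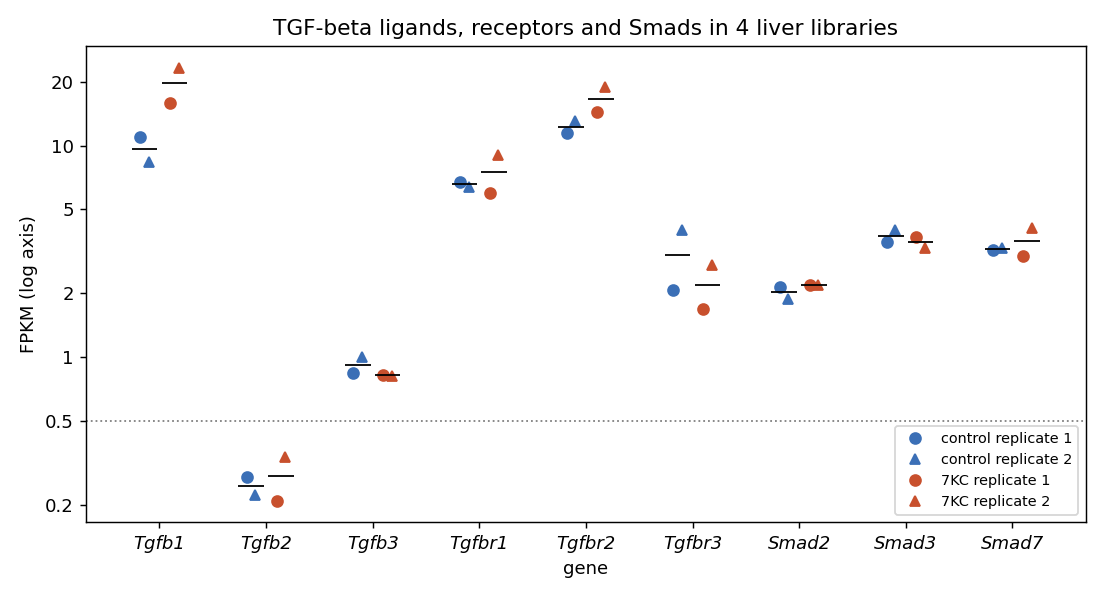
FPKM (log axis) of the 9 members in each liver library, with control libraries in blue and 7KC libraries in red, replicate 1 as circles and replicate 2 as triangles. Bars are group means and the dotted line is the filter at 0.5 FPKM. Tgfb1, Tgfbr2 and, by a small margin, Smad2 had both 7KC points above both control points, and Tgfb3 had both below. Tgfb2 lay under the filter in all libraries.

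The first question was which members differed when 7KC was added to the diet. Values were compared as log2(FPKM + 0.5) with limma, a linear model that shares the spread between genes, and p was adjusted over all 12299 genes averaging 0.5 FPKM or more. Of the 9 members, 8 passed this filter, and none passed an adjusted p under 0.05 in either direction (0 of 8). Over all genes tested, 0.480% passed as higher and 0.0244% as lower in the 7KC group. At an unadjusted p under 0.05 (limma), 2 members, Tgfb1 and Tgfbr2, were higher and 0 were lower. Of all genes, 12.0% were higher and 5.81% lower. Tgfbr2 passed narrowly (limma unadjusted p = 0.0493) and not under every alternative processing. The groups did not overlap in 4 of the 8 tested members, of which 3 were higher with 7KC (25.1% of all genes) and 1 lower (27.4% of all genes). The median log2 change of the 8 members was 0.10, beside -0.03 for all genes tested, and it turned to -0.06 without 7KC replicate 2 and to -0.04 after quantile normalization. With 8 genes tested these shares rest on few members.

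Among the ligands, Tgfb1 (chromosome 7, 25687002 to 25705077, plus strand), the main isoform of immune and stromal cells, was at 11.0 and 8.33 FPKM in the control group, against 15.9 and 23.4 FPKM with 7KC. Each 7KC library was above each control library, and 7KC replicate 2 was the highest. The means were 9.66 ± 1.89 and 19.7 ± 5.25 FPKM (SD, n = 2 each), a ratio of 2.03. The log2 change was 0.98 with a 95% interval from 0.40 to 1.55, and it did not pass the threshold over all genes (limma adjusted p = 0.124). It was 0.71 without 7KC replicate 2 and 1.24 without 7KC replicate 1, and higher in the 7KC group under each alternative that gave it a value.

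The values of the other ligands lay closer together. Tgfb3 (chromosome 12, 86056745 to 86079041, minus strand), an isoform of mesenchymal cells, was at 0.840 and 0.997 FPKM in the control group, against 0.822 and 0.816 FPKM with 7KC. The groups did not overlap, but control replicate 1 was nearly level with the 7KC libraries, and the log2 change was -0.10 (95% interval -0.56 to 0.36), or 0.03 with libraries scaled to a common total. Tgfb2 (chromosome 1, 186622792 to 186705989, minus strand), the isoform best known from development and epithelia, was at 0.270 and 0.223 FPKM in the control group, against 0.209 and 0.335 FPKM with 7KC. The 7KC libraries were the lowest and the highest of the 4, so the groups overlapped. These values stand for about 14 to 23 reads a library, where the counting error is 26.7% of the value at the lowest, and a difference of this size was not detectable at this depth. Exons of Tgfb2 and Tgfb3 overlap genes on the opposite strand (Gm29491, and Gm37804 with Gm48008), and the strand setting of the counting was not given, so reads of these partners cannot be told apart.

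Ratios within a library are not moved by its scaling. Tgfb1 was 40.8 and 37.4 times Tgfb2 in the control group, against 76.4 and 69.8 times with 7KC. The log2 ratio of Tgfb1 to Tgfb2 was higher by 0.90 in the 7KC group. The SD of 0.09 in each group is smaller than the counting error of Tgfb2 alone, so it understates the error of this ratio. Tgfb1 was 13.1 and 8.36 times Tgfb3 in the control group, against 19.4 and 28.6 times with 7KC, a log2 difference of 1.17. In both ratios the groups did not overlap. The exact 2-sided permutation p was 0.333 for each, the smallest that 2 libraries against 2 can give. Tgfb1 accounted for 90.8% and 87.2% of the summed ligand FPKM in the control group, against 93.9% and 95.3% with 7KC.

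**Figure D2:**
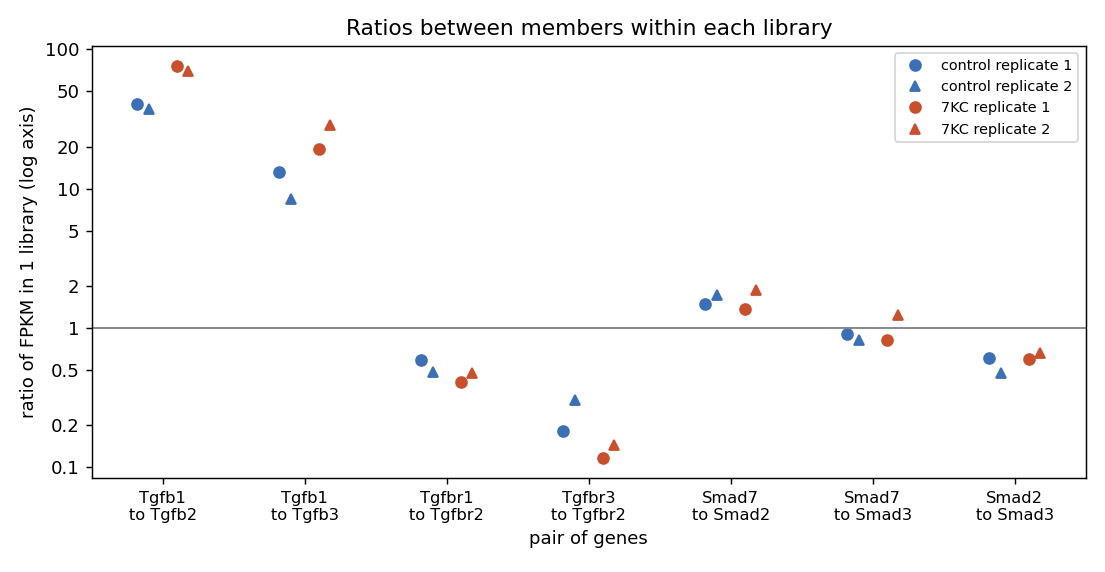
Ratio of FPKM between pairs of members inside the same library (log axis), colored by group and shaped by replicate as in the plot of member levels. Tgfb1 over Tgfb2 was 37.4 and 40.8 in the control group, against 69.8 and 76.4 with 7KC, while the 3 Smad ratios overlapped between groups.

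The genes whose pattern over the 4 libraries was closest to that of Tgfb1 were Cd48, Gltp and Cd53. Likeness was the root-mean-square difference of log2 values centered on each gene's mean, among 7172 genes with at least 5 FPKM. It was 0.021 for Cd48, 0.028 for Gltp and 0.030 for Cd53. Cd48 and Cd53 encode surface proteins of leukocytes, and Gltp encodes a glycolipid transfer protein. Cd48, for example, was at 8.86 and 6.43 FPKM in the control group, against 12.5 and 18.7 FPKM with 7KC. Gltp was at 15.5 and 11.6 FPKM in the control group, against 23.1 and 32.0 FPKM with 7KC. With only 4 libraries many genes have close patterns, so likeness here is a description.

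Leukocytes are known to express Tgfb1. Markers of T and NK cells, and part of those of monocytes and recruited macrophages, were higher in the 7KC libraries. Of the other leukocyte lists, given further below, resident Kupffer cell markers differed in both directions. Neutrophil and B cell markers were higher or overlapped between groups. In bulk liver, more cells of a type and more RNA per cell cannot be told apart. Of 14 tested T and NK cell markers, all 14 were higher with 7KC without overlap, beside 25.1% of all genes. Among them, Klrb1c (0.336 and 0.358 against 0.839 and 0.654 FPKM) passed the filter only through its 7KC values. It was named after its values were seen. Only Cd247 passed the threshold, with a log2 change of 1.47 (limma adjusted p = 0.0451, named after its values were seen). This call was lost when genes with low values were kept in the fit and with the replicate number as a block, where no gene passed as higher. Whether Cd247 passed in the other alternatives was not examined. The summed T and NK cell markers (15 genes) were at 18.5 to 28.8 FPKM in the control libraries and at 60.6 to 71.3 FPKM in the 7KC libraries. Cd3e, a subunit of the T-cell receptor complex, was at 2.37 and 2.12 FPKM in the control group, against 6.58 and 5.59 FPKM with 7KC. Monocyte and recruited macrophage markers summed to 61.3 to 88.7 FPKM and to 155 to 210 FPKM, with 6 of 10 genes higher without overlap. Of these, the integrin gene Itgam was at 1.84 and 1.30 FPKM in the control group, against 4.88 and 7.47 FPKM with 7KC. No marker of either list was at 0 in any library. The part of these cells in the Tgfb1 difference was not tested.

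Markers of other cells known to hold TGF-beta were set beside the ligand too, where 25.1% of all genes were higher and 27.4% lower without overlap. Resident Kupffer cell markers summed to 400 to 475 FPKM in the control libraries and to 462 to 629 FPKM in the 7KC libraries, and 3 of 9 were higher and 2 lower without overlap. Clec4f, a Kupffer cell lectin, was at 52.7 and 62.3 against 48.1 and 65.1 FPKM, and the macrophage marker Adgre1 at 9.93 and 14.5 against 14.3 and 28.6 FPKM, both with overlap. The 3 higher Kupffer markers, named after their values were seen, were the phagocyte receptors Timd4 (7.44 and 7.62 against 13.3 and 16.3 FPKM, limma adjusted p = 0.0606) and Marco (82.4 and 63.4 against 123 and 153 FPKM, adjusted p = 0.0966) and the secreted protein Cd5l (105 and 112 against 126 and 232 FPKM). The 2 lower ones were Vsig4 and the scavenger receptor Cd163. Platelet markers summed to 4.78 to 7.36 FPKM and to 5.77 to 7.05 FPKM, with 1 of 4 tested genes higher without overlap. That gene, Pf4, a platelet chemokine, was at 2.02 and 2.31 against 3.30 and 2.50 FPKM. Neutrophil markers (2 of 4 tested genes higher without overlap, sums of 18.3 to 33.8 and 39.4 to 42.3 FPKM) and B cell markers (1 of 3, sums of 2.54 to 7.49 and 6.99 to 7.28 FPKM) completed the leukocyte lists. Only Pax5 of the B cell list and Gp6 of the platelet list were at 0, each in 1 library.

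Next, the receptors were compared. Tgfbr2 (chromosome 9, 116084293 to 116175360, minus strand), the kinase that binds the ligand, was at 11.5 and 13.1 FPKM in the control group, against 14.5 and 18.9 FPKM with 7KC. The groups did not overlap. The means were 12.3 ± 1.17 and 16.7 ± 3.10 FPKM (SD, n = 2 each). The log2 change of 0.42 (SE 0.16, 95% interval 0.00 to 0.83) did not pass the threshold (limma adjusted p = 0.279). It was 0.23 without 7KC replicate 2 and 0.60 without 7KC replicate 1. The unadjusted p of 0.0493 (limma) became 0.0593 without a filter, 0.0647 without a trend in the prior variance and 0.0599 after quantile normalization. It stayed under 0.05 with the other pseudocounts, the higher filter, common-total and median ratio scaling and the replicate block.

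Tgfbr1 (chromosome 4, 47353222 to 47414931, plus strand), the kinase that phosphorylates the Smads, was at 6.73 and 6.39 FPKM in the control group, against 5.99 and 9.01 FPKM with 7KC. The 7KC libraries were the lowest and the highest, and without 7KC replicate 2 the log2 change turned from 0.15 to -0.12. Its 95% interval ran from -0.36 to 0.67. Tgfbr3 (chromosome 5, 107106570 to 107289629, minus strand), the co-receptor betaglycan, was at 2.08 and 4.0 FPKM in the control group, against 1.69 and 2.72 FPKM with 7KC. It had the widest spread within the control group, with a ratio of 1.92 between replicates, and its log2 change was -0.36 (95% interval -1.19 to 0.47) but 0.04 without control replicate 2. An exon of Tgfbr3 overlaps Gm43422 on the same strand, and the split of reads between them is uncertain.

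Ratios between receptors were compared next. The ratio of Tgfbr3 to Tgfbr2 was 0.181 and 0.304 in the control group, against 0.116 and 0.144 with 7KC, a log2 difference of -0.86. Tgfbr1 to Tgfbr2 was 0.587 and 0.487 in the control group, against 0.413 and 0.476 with 7KC, a log2 difference of -0.27. Neither ratio overlapped between groups, and each had an exact permutation p of 0.333. Tgfbr2 made up 56.6% and 55.8% of the summed receptor FPKM in the control group, against 65.4% and 61.7% with 7KC.

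**Figure D3:**
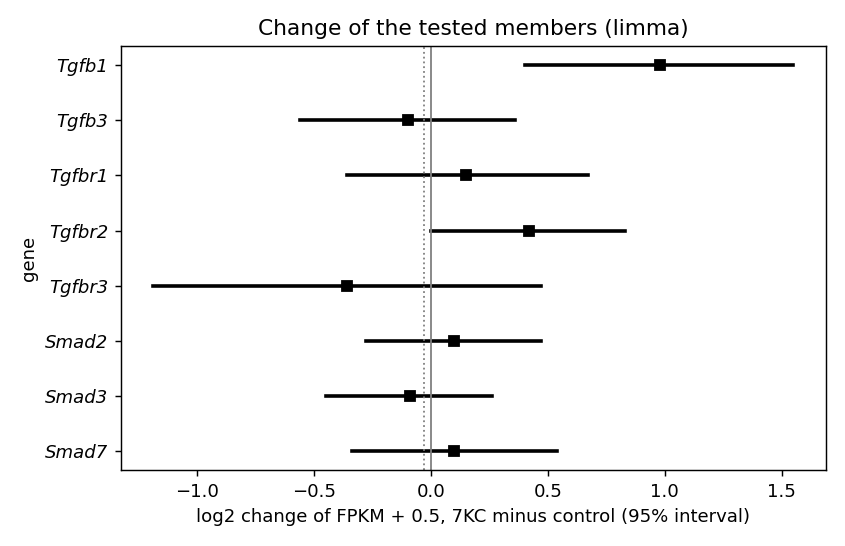
Log2 change of FPKM + 0.5 (7KC minus control) of the 8 tested members, with squares for the limma estimate and lines for its 95% interval. The solid line marks 0 and the dotted line the median of all genes tested, -0.03. Tgfb1, at 0.98, had the largest change, and the 3 Smads lay within 0.10 of 0.

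The log2 changes of the Smads were between -0.09 and 0.10. Smad3 (chromosome 9, 63646767 to 63757994, minus strand), a receptor-activated Smad that binds DNA, was at 3.51 and 3.99 FPKM in the control group, against 3.68 and 3.29 FPKM with 7KC. The groups overlapped, and the log2 change was -0.09 (95% interval -0.45 to 0.26), or 0.09 with libraries scaled to a common total. Smad2, its close relative, was at 2.15 and 1.89 FPKM in the control group, against 2.2 and 2.19 FPKM with 7KC. Both 7KC libraries were above both control libraries by a small margin, and the log2 change was 0.10 (95% interval -0.28 to 0.47), or -0.07 after quantile normalization.

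Smad7, the feedback inhibitor that the pathway itself induces, was at 3.19 and 3.28 FPKM in the control group, against 3.00 and 4.08 FPKM with 7KC. The 7KC libraries lay on either side of the control libraries. Its log2 change was 0.10 (95% interval -0.34 to 0.54) and turned to -0.09 without 7KC replicate 2 and to -0.02 after quantile normalization. Smad7 to Smad3 was 0.908 and 0.822 in the control group, against 0.814 and 1.24 with 7KC, so the balance of inhibitor and carrier overlapped between groups (exact permutation p = 1). Smad7 to Smad2 was 1.48 and 1.73 in the control group, against 1.36 and 1.86 with 7KC, and Smad2 to Smad3 was 0.612 and 0.474, against 0.596 and 0.666, and both overlapped. The intervals of the 3 Smads ran from -0.45 to 0.54 on the log2 scale, so equal levels were not shown.

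Among the 4 libraries, 7KC replicate 2 was the highest for 5 of the 9 members, Tgfb1, Tgfb2, Tgfbr1, Tgfbr2 and Smad7. Control replicate 2 was the highest for Tgfb3, Tgfbr3 and Smad3. 7KC replicate 2 also had the lowest summed FPKM of all genes (557138, against 619828 to 685028 in the others) and the lowest summed hepatocyte markers (40745 FPKM, against 54182 to 75607). The liver label was matched by Alb, the albumin gene of hepatocytes, at 18988 to 41547 FPKM in all libraries. Depth, estimated from the steps of the low values, was 13600000 to 17000000 mapped reads, and apart from Tgfb2 each member had about 36 to 2044 reads a library with the length of its longest transcript.

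Then the other genes of the pathway were described as lists, by role. Latency and activation genes store and release the ligand, and none of 19 tested passed the threshold. Without overlap of the groups, 8 of 19 (42.1%) were higher with 7KC and 3 (15.8%) lower, beside 25.1% and 27.4% of all genes, and the median log2 change was 0.20. The smallest p belonged to Tgm2, Plau and Mmp14. Tgm2, a transglutaminase that crosslinks latent TGF-beta to matrix, was at 42.4 and 40.1 FPKM in the control group, against 66.3 and 76.6 FPKM with 7KC (log2 change 0.78, limma adjusted p = 0.0621). Plau, the urokinase that generates plasmin, was at 1.58 and 1.25 against 3.23 and 3.65 FPKM (1.05, adjusted p = 0.0621). Mmp14, a membrane metalloproteinase, was at 19.1 and 15.1 against 27.8 and 36.7 FPKM (0.89, adjusted p = 0.104). None of the 3 overlapped between groups, which their pick by smallest p favors. Nrros, which tethers latent TGF-beta on myeloid cells, was at 3.46 and 3.20 against 5.76 and 8.68 FPKM, whereas Lrrc32, which tethers it on regulatory T cells and platelets, was at 6.59 and 6.46 against 5.53 and 5.67 FPKM. These 2 were named after their values were seen.

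Co-receptors and extracellular modulators were mixed, with 2 of 7 tested higher (28.6%) and 1 lower (14.3%) without overlap, beside 25.1% and 27.4% of all genes, and none past the threshold. Their median log2 change was 0.07, but -0.30 without 7KC replicate 2. Acvrl1, a type I receptor of endothelial cells, was at 2.03 and 1.92 FPKM in the control group, against 2.95 and 4.91 FPKM with 7KC. Dcn, the proteoglycan decorin, which binds and holds TGF-beta, was at 140 and 147 against 101 and 124 FPKM (log2 change -0.35, limma adjusted p = 0.287). Bgn, the related biglycan, was at 79.6 and 77.6 against 81.9 and 99.0 FPKM. The list thus held differences in both directions.

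Other Smads and Smad regulators were close to the median of all genes, with 7 of 25 higher (28.0%) and 5 lower (20%) without overlap, beside 25.1% and 27.4% of all genes, a median of -0.04 and none past the threshold. Zfyve9, the SARA protein that brings Smad2 and Smad3 to the receptor, was at 5.98 and 6.02 FPKM in the control group, against 4.66 and 4.67 FPKM with 7KC (log2 change -0.33, limma adjusted p = 0.238). Ppm1a, a phosphatase that acts on Smads, was at 45.8 and 45.1 against 38.9 and 36.5 FPKM. Pmepa1, an induced inhibitor, was at 1.54 and 1.20 against 1.83 and 2.45 FPKM. Smad4, the shared partner, overlapped between groups at 9.54 and 10.4 against 9.10 and 9.54 FPKM and was named after its values were seen.

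Genes that TGF-beta is known to induce had differences in both directions. Of 21 tested, none passed the threshold, and the median log2 change was 0.01. Without overlap of the groups, 7 (33.3%) were higher and 6 (28.6%) lower, beside 25.1% and 27.4% of all genes. At an unadjusted p under 0.05 (limma), 6 were higher and 3 lower, beside 12.0% and 5.81% of all genes. Ctgf, a matrix growth factor, was at 16.5 and 21.2 FPKM in the control group, against 8.70 and 9.59 FPKM with 7KC (log2 change -0.99, SE 0.16, limma adjusted p = 0.0621). Tagln, an actin-binding protein of contractile cells, was at 14.2 and 17.2 against 9.55 and 8.80 FPKM (-0.74, adjusted p = 0.0857). Cdkn1a, the cell-cycle inhibitor p21, which is also a target of p53, was at 4.71 and 2.2 against 9.74 and 9.37 FPKM (1.42, adjusted p = 0.112). These 3 genes were picked by the smallest p of the list, which favors groups that do not overlap, as theirs did not.

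Further targets with an unadjusted p under 0.05 were named after their values were seen. On the higher side were the protease inhibitor Timp1 (3.53 and 1.82 against 7.29 and 4.28 FPKM), and the matrix genes Tgfbi (23.4 and 23.2 against 30.2 and 45.2 FPKM), Col1a1 (16.0 and 8.10 against 23.5 and 34.2 FPKM) and Col1a2 (15.8 and 8.96 against 17.9 and 30.2 FPKM). On the lower side was Fn1, fibronectin, at 263 and 274 against 210 and 217 FPKM, a gene that hepatocytes also make. Klf10, an early TGF-beta response gene, was not among them (limma unadjusted p = 0.0698). Its difference rested on control replicate 2, with 10.2 and 39.1 FPKM in the control group, against 7.59 and 7.64 FPKM with 7KC. The median of this list was 0.27 without 7KC replicate 1.

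Markers of the cells that respond to TGF-beta were set beside these targets. Stellate cell markers summed to 131 to 139 FPKM in the control libraries and to 99.3 to 111 FPKM in the 7KC libraries, with 2 of 9 higher and 3 lower without overlap. Over all genes these shares were 25.1% higher and 27.4% lower, which serve for each list of this paragraph. The defining genes Lrat (7.09 and 4.35 against 4.91 and 6.41 FPKM) and Des (2.97 and 2.59 against 2.90 and 2.12 FPKM) overlapped between groups. The 3 lower stellate markers, named after their values were seen, were Ecm1 (65.1 and 74.1 against 45.7 and 46.8 FPKM, log2 change -0.58, limma adjusted p = 0.0966), Reln (4.97 and 5.42 against 3.25 and 4.09 FPKM) and Colec11 (33.4 and 32.5 against 25.9 and 29.2 FPKM), and the sum rests mostly on Ecm1 and Colec11. The 2 higher ones were Hgf and Ngfr. Portal fibroblast and smooth muscle markers summed to 12.4 to 14.4 FPKM and to 16.1 to 21.1 FPKM, with 1 of 6 tested higher. That gene, Thy1, which T cells also express, was at 3.69 and 3.16 against 7.29 and 8.56 FPKM and was named after its values were seen. The other 5 tested portal markers overlapped, so the sum moved mainly with Thy1. Hepatocyte markers were lower without overlap in 10 of 14. Sinusoidal endothelial markers summed to 148 to 177 FPKM and to 146 to 217 FPKM with 1 of 9 higher, and Stab2 was at 6.76 and 12.3 against 6.16 and 8.85 FPKM. Cholangiocyte markers summed to 9.36 to 10.7 FPKM and to 8.41 to 10.4 FPKM, with 1 of 4 higher and 1 lower, the latter Krt19 at 1.50 and 1.42 against 1.12 and 1.24 FPKM. No stellate, portal, hepatocyte, endothelial or cholangiocyte marker was at 0, and their part in the target differences was not tested.

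**Figure D4:**
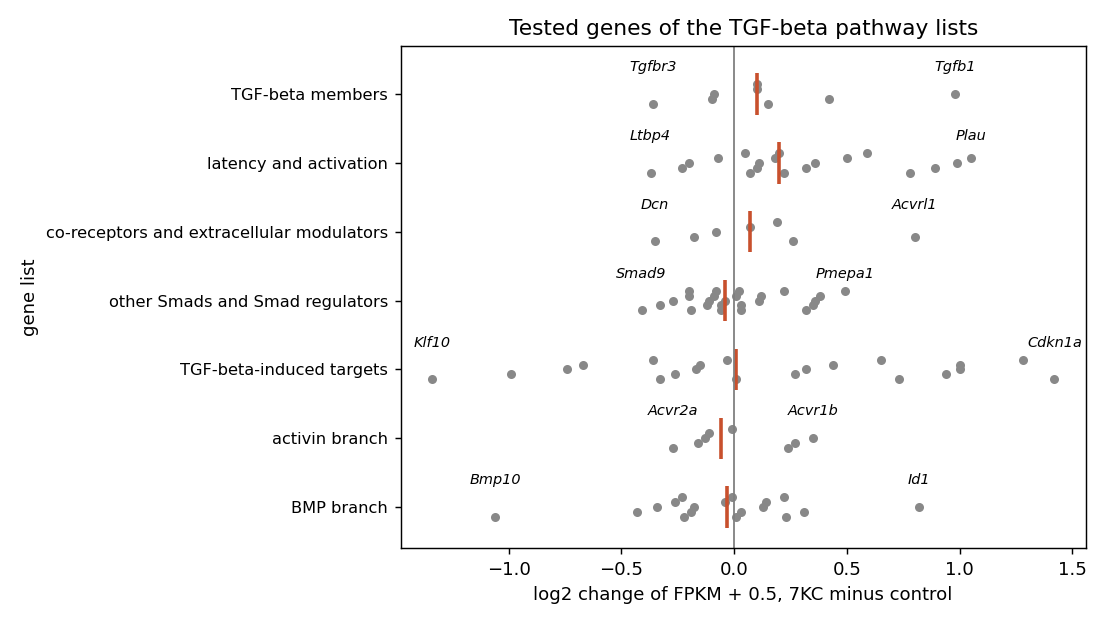
Log2 change of FPKM + 0.5 (7KC minus control) of each tested gene, 1 gray point per gene, for the 9-member family and 6 pathway lists, with a red bar at the median of each list and the extreme genes named. Latency and activation genes had the highest median, 0.20, and the induced targets spread from Klf10 to Cdkn1a around a median of 0.01.

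Finally, the sister branches of the superfamily were compared. Activin signals through Smad2 and Smad3 as TGF-beta does, and of 8 tested genes of its branch 1 was higher (12.5%) and 2 were lower (25.0%) without overlap, beside 25.1% and 27.4% of all genes. The median log2 change of -0.06 turned to 0.10 without control replicate 1 and to 0.11 without 7KC replicate 2. Acvr1b, an activin type I receptor, was at 3.57 and 3.87 FPKM in the control group, against 4.56 and 5.19 FPKM with 7KC. Acvr2a, a type II receptor, was at 4.47 and 4.93 against 3.89 and 3.71 FPKM, and Inhbc, a subunit made by hepatocytes, at 23.7 and 24.0 against 22.0 and 20.4 FPKM. The log2 change of Inhbc had the opposite sign, 0.04, after each library was scaled to 1 common total.

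The bone morphogenetic protein (BMP) branch, which uses other Smads and controls hepcidin, had 3 of 18 tested genes higher (16.7%) and 5 lower (27.8%) without overlap, beside 25.1% and 27.4% of all genes. The median log2 change of -0.03 turned to 0.04 without control replicate 2 and to 0.08 without 7KC replicate 2, and was -0.17 without control replicate 1. Bmp10, a circulating ligand and 1 of the 5 lower genes, was at 0.998 and 1.63 FPKM in the control group, against 0.263 and 0.456 FPKM with 7KC. Both 7KC values lay under the 0.5 FPKM filter, so it was tested only through its control values. Its log2 change of -1.06 (SE 0.26, limma adjusted p = 0.133) depended on the pseudocount. It was -0.76 with a pseudocount of 1 FPKM and -1.62 with 0.1 FPKM. Id1 and Id3, inhibitors of DNA binding that BMPs induce, were at 6.36 and 7.09 against 9.56 and 15.7 FPKM and at 41.1 and 42.7 against 47.3 and 51.5 FPKM. Hamp, the hepcidin gene, overlapped at 3227 and 2929 against 3635 and 3164 FPKM and was named after its values were seen. No gene of either branch passed the threshold.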

How the data were processed

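Libraries were prepared by the authors from liver RNA with a stranded messenger RNA kit and sequenced as single-end reads. Reads were mapped to mm10 (TopHat with Bowtie2). The study's methods name Cufflinks for the FPKM and the submitters' notes name Cuffdiff, so which of them made the deposited values is not known. The submitters' processing notes give TopHat2 2.1.1, Bowtie2 2.2.8, SAMtools 0.1.18 and Cuffdiff 2.2.1, while the study's methods name other versions of the mapping tools. Gene models, strand and bias settings were not given in the sources used here. The deposited files hold 1 FPKM per gene symbol for each library. FPKM as the study defines it is relative to all mapped reads, so a few abundant genes move the rest. It is not a count, so no count model was used.

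Here log2(FPKM + 0.5) of 12299 genes averaging 0.5 FPKM or more was fitted in R 4.3.3 by limma 3.58.1 (empirical Bayes with a variance trend, group as the only term, 2 residual and 3.27 prior degrees of freedom). Adjusted p refers to Benjamini-Hochberg correction over these genes. The fold scale understates changes of low genes. The fit was tested on simulated data. Ratios between members used exact permutation tests. Depth came from 4107 single-transcript genes of GENCODE M21 (same build), less 200 bases each. Of their values of up to 10 reads, 68.4% to 70.4% lay within 0.1 of a whole read. Longest transcripts gave approximate reads, and intervals on them cover counting error only.

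The members, the 6 pathway lists and the 11 marker lists were chosen from general knowledge with earlier results of these data known. Of 213 list genes, 1 was not matched. Named genes were all members, the 3 smallest p of each pathway list, the 3 genes most like Tgfb1 and 10 set markers. Others are marked as named after their values were seen, and 1 target gene is not reported here. Alternatives were other pseudocounts, filters, scalings and prior settings, a replicate block and leaving out each library.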

Additional observations from a re-analysis of the deposited data

How the results depend on the processing

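Across the alternatives set out at the start, Tgfb1 and Tgfbr2 kept their direction, with log2 changes of 0.71 to 1.24 and 0.23 to 0.62. Their adjusted p ran from 0.0754 to 0.482 and from 0.168 to 0.748 (limma). No member passed the threshold under any alternative set out at the start. Rescaling libraries to the same sum of FPKM moved the median of all genes from -0.03 to 0.16 and turned Tgfb3 to 0.03, Smad3 to 0.09 and Inhbc to 0.04, all still below that median. Quantile normalization turned Smad2 to -0.07 and Smad7 to -0.02. Single libraries turned Tgfbr3 (-0.76 to 0.04), Tgfbr1 (-0.12 to 0.43) and Smad7 (-0.09 to 0.29).

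Over all genes, the 59 higher and 3 lower became 111 higher with a pseudocount of 1 FPKM, 94 higher with median ratio scaling, 398 and 7 with the same sum, 39 and 1 without a trend in the prior variance, and 0 and 1 without a filter (limma, 1792 and 842 at an unadjusted p under 0.05). Leaving out 1 library gave 2 (without 7KC replicate 2) to 404 (without control replicate 1) higher and 1 to 54 lower. Replicate numbers are shared by the groups but no label says what they pair. With the replicate block 0 were higher and 0 lower (1269 and 582 at an unadjusted p under 0.05), which leaves 1 residual degree of freedom. Deviations of same-numbered libraries correlated at -0.14 over genes, and with the numbers crossed, an alternative added after seeing the data, 551 were higher and 37 lower, 1 of them a member, Tgfb1. The causes were not tested. Calls for single genes are limited by 2 libraries a group.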
